A study of Mus musculus with 8 samples.

Results

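The genes described here encode the enzymes of fatty acid and cholesterol synthesis and the proteins that set their transcription. The list held 34 genes, and 33 of them, of 19938 genes measured in all, had a probe set annotated with 1 gene symbol. The exception was Acat2, a cytosolic thiolase that starts the mevalonate route, which is not analysed here. Where a gene had several probe sets, the one with the highest mean over all arrays stood for it. The set was chosen by measured values of these same arrays, on which one of its genes, the desaturase Scd1, was higher in MEP than in KLS cells. Their differences between the cell types are therefore given as a description, with no test read from them. The differences between genotypes were not used to choose the genes and were tested.

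RNA was measured on Affymetrix arrays in 4 groups of C57BL/6J mouse bone marrow cells, with 2 arrays per group. WT KLS and WT MEP cells came from wild-type mice, and TG KLS and TG MEP cells from mice whose genotype label is ∆Hmga2, a series named for overexpression of HMGA2, a chromatin-bound protein of stem cells. The KLS fraction carries c-Kit and Sca-1, lacks lineage markers and is rich in stem and multipotent progenitors, while MEP stands for progenitors of megakaryocytes and red cells. All cells were flow sorted, and each array held a separate RNA preparation pooled from 4 or 6 mice. The sources used here do not give the promoter that drives the transgene, or the age and sex of the mice.

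Fatty acids are built from cytosolic acetyl-CoA, which acetyl-CoA carboxylase turns into malonyl-CoA and fatty acid synthase joins into palmitate. Elongases and desaturases then lengthen the chain and add double bonds. Cholesterol is built from the same acetyl-CoA through mevalonate, the isoprenoid diphosphates and squalene. Both routes are transcribed under the control of SREBP factors, the products of Srebf1 and Srebf2. SCAP escorts SREBP to the Golgi for cleavage when sterols are scarce, and INSIG proteins hold the SCAP-SREBP complex in the endoplasmic reticulum when sterols are plentiful. Dividing blood progenitors need both products for new membrane, and red cell precursors also need them for their plasma membrane.

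Most markers of the labelled cell types differed in the direction of the labels, and some arrays stood apart. Of all genes, 1.20% were called lower and 0.396% higher in MEP cells, and 46.5% had a positive MEP minus KLS difference. Of 9 stem and multipotent progenitor markers measured, 6 were called lower in MEP cells by limma, among them the transcription factor Hlf. Of 11 erythroid markers, 2 were called higher in MEP cells, the transferrin receptor Tfrc and the blood group protein Rhd, and all 11 had positive differences. The megakaryocyte markers did not follow the MEP label, with 0 of 7 called, 5 of 7 differences negative, and Pf4, Ppbp and Itga2b lower in MEP cells at an unadjusted p under 0.05. B lineage markers had a mean log2 level of 9.66 on WT MEP 1, against 7.23 to 7.36 on the other MEP arrays. Stem and multipotent progenitor markers had a mean of 7.42 on WT MEP 1, against 6.71 to 6.81 on the other MEP arrays. T and NK markers had a mean of 6.29 there, against 5.58 to 5.83. Mature neutrophil markers had a mean of 10.17 on WT MEP 1, 9.45 on WT MEP 2, and 8.62 and 8.75 on TG MEP arrays. On KLS arrays their mean ran from 9.84 to 10.74, highest on WT KLS 2, and all 10 had negative MEP minus KLS differences. Primary granule markers had a mean of 9.65 on WT KLS 1 and 9.83 on TG KLS 1, against 8.73 and 8.83 on the other KLS arrays. The probe set of Hmga2 differed between TG and WT by a log2 value of 0.25 in each cell type (adjusted p = 1.0 in both, limma). Its TG arrays lay above the WT arrays in MEP cells, as for 13.0% of all genes, and overlapped them in KLS cells. Averaged over cell types the interval was 0.00 to 0.49 (unadjusted p = 0.0475, adjusted p = 0.999, limma). Whether the probe set lies in the part kept in ∆Hmga2 was not tested. Arrays have no read depth, so their number limits the precision.

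Levels are quantile-normalised log2 intensities, and a level is compared only for the same gene. Between the highest and the lowest of the 8 arrays, the 33 genes spanned 0.17 (Srebf1) to 1.95 (Scd1), with a median of 0.7. None of the 33 genes was among the 30% of genes with the lowest mean level. Scd1 is the gene with the strong step between the cell types, and for 30 of the 33 genes the KLS and MEP arrays overlapped.

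**Figure D1:**
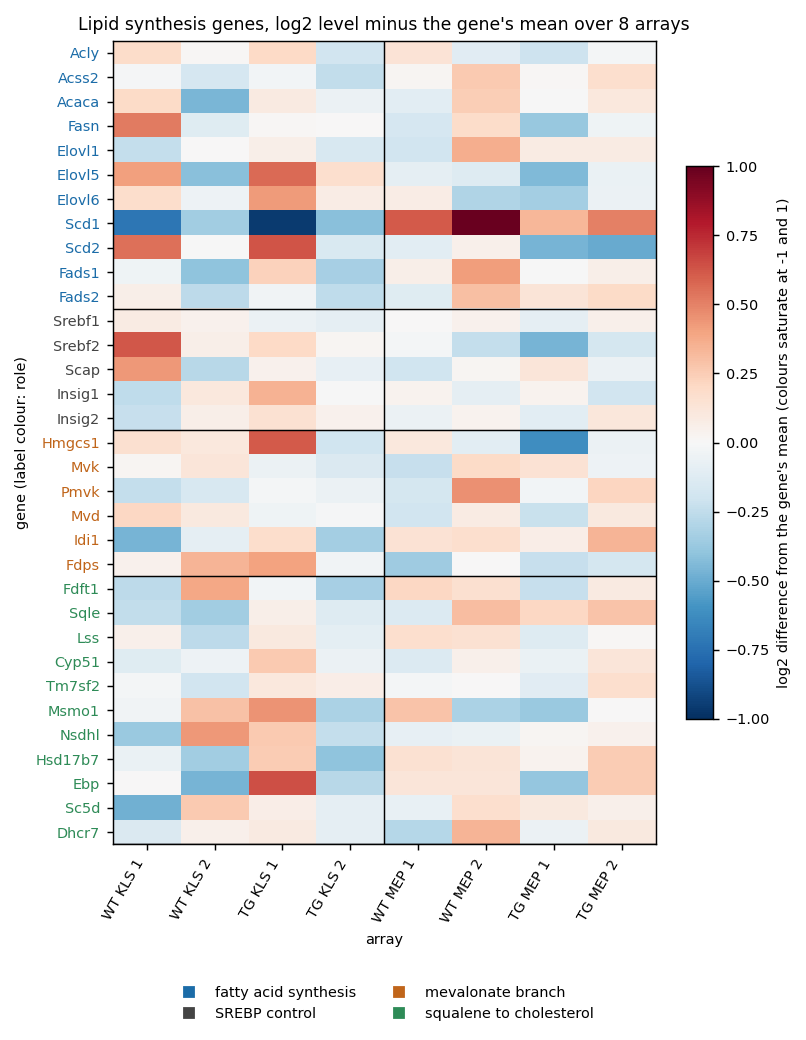
Log2 level of each of the 33 genes (rows, label colour by role) on each of the 8 arrays (columns), minus the gene's mean over the arrays. Scd1 runs blue on the 4 KLS arrays and red on the 4 MEP arrays, and the TG KLS 1 column holds the highest value of 12 genes.

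Among the fatty acid genes, the stearoyl-CoA desaturases had differences of opposite sign between the cell types, with separate arrays for Scd1 and overlapping ones for Scd2. These enzymes place the first double bond in a saturated chain and so make oleate and palmitoleate. The log2 level of Scd1 was 6.31 and 6.69 on the WT KLS arrays, 6.08 and 6.62 on the TG KLS arrays, 7.65 and 8.02 on the WT MEP arrays, and 7.37 and 7.54 on the TG MEP arrays. Every MEP array was above every KLS array. The mean was 7.64 ± 0.28 in MEP cells and 6.42 ± 0.28 in KLS cells (SD over 4 arrays of each type). The difference was 1.22 ± 0.16 on the log2 scale (SE), or 2.33-fold, with a 95% interval of 0.86 to 1.58. Since this difference chose the set, the interval is a description and no test is read from it. The difference was 1.34 ± 0.22 within WT and 1.11 ± 0.22 within TG cells. In bulk samples, more cells of a type and more RNA per cell cannot be told apart.

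Scd2, the paralogue that lies with Scd1 on chromosome 19, had the lowest difference of all 33 genes. Its log2 level was 8.10 and 7.55 in WT KLS, 8.18 and 7.40 in TG KLS, 7.45 and 7.60 in WT MEP, and 7.09 and 7.05 in TG MEP cells. The KLS and MEP arrays overlapped, since both WT MEP arrays lay above TG KLS 2. The MEP minus KLS difference was -0.51 ± 0.19 (SE, interval -0.93 to -0.09), with -0.30 within WT and -0.72 within TG cells.

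The enzymes upstream of the desaturases had small differences. Acss2, which makes acetyl-CoA from acetate, was at 7.28, 7.12, 7.26 and 7.04 on the WT and TG KLS arrays and at 7.31, 7.55, 7.30 and 7.46 on the WT and TG MEP arrays. It was, beside Scd1, the other member with every MEP array above every KLS array, though the gap was narrow and the difference was 0.23 ± 0.11. ATP-citrate lyase (Acly, -0.10), acetyl-CoA carboxylase (Acaca, 0.11) and fatty acid synthase (Fasn, -0.21) overlapped between the cell types. Fasn stood highest on WT KLS 1, at 7.91, and lay between 7.01 and 7.57 on the other arrays.

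The elongases differed in sign from one another. Elovl5, which lengthens polyunsaturated chains, was lower in MEP cells by a log2 difference of -0.36 ± 0.19, and Elovl6, which lengthens saturated and monounsaturated chains, by -0.32 ± 0.14. Elovl1, of very long chains, was at 0.17. The polyunsaturated fatty acid desaturases Fads1 and Fads2 had positive differences, 0.27 ± 0.16 and 0.24 ± 0.13. For all 5 genes the arrays of the cell types overlapped.

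Of the control genes, Srebf2, whose product drives the cholesterol genes, was the member with every MEP array below every KLS array. Its log2 level was 8.01 and 7.45 in WT KLS, 7.59 and 7.41 in TG KLS, 7.37 and 7.15 in WT MEP, and 6.92 and 7.21 in TG MEP cells. The lowest KLS array, at 7.41, was close to the highest MEP array, at 7.37. The difference was -0.45 ± 0.15 (SE, interval -0.78 to -0.12), with -0.47 within WT and -0.43 within TG cells. Srebf1, whose product favours fatty acid genes, was the flattest of the 33, between 7.02 and 7.19 on all arrays, with a difference of 0.01 ± 0.09. The escort Scap (-0.06) and the retention proteins Insig1 (-0.10) and Insig2 (-0.01) overlapped between the cell types. The probe sets used here give 1 value per gene, so the transcript forms of Srebf1 were not separated.

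**Figure D2:**
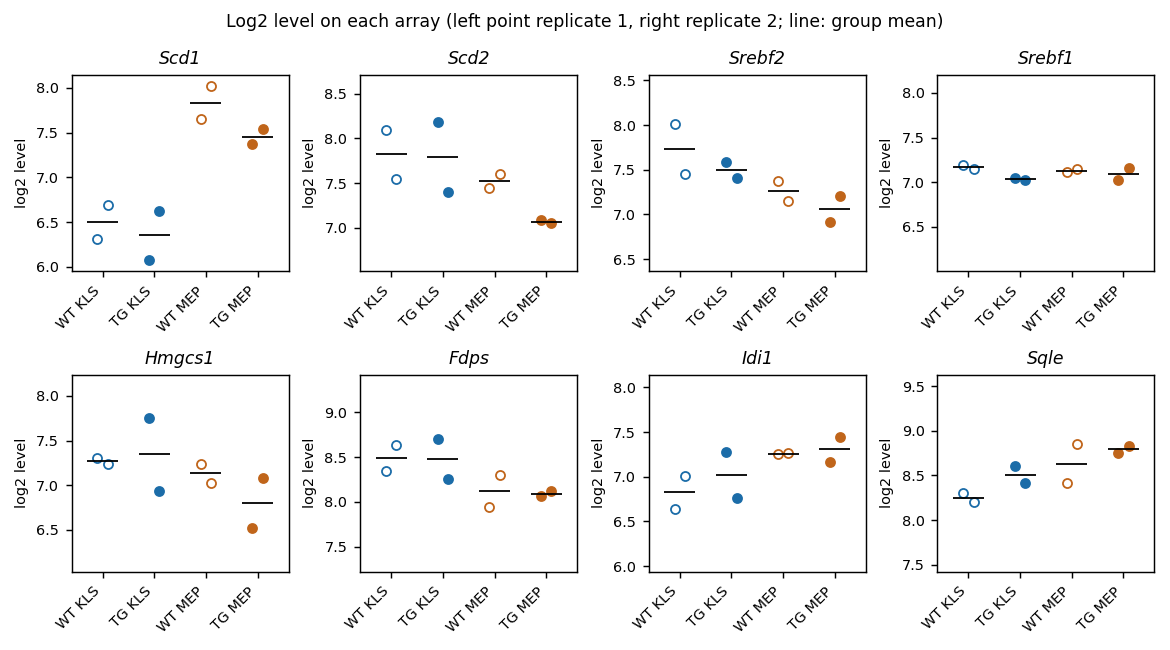
Log2 level on each array for 8 genes, by group (blue KLS, orange MEP, open WT, filled TG), each panel spanning the same log2 range. In the Scd1 panel the MEP points all lie above the KLS points, in the Srebf2 panel they all lie below, and Srebf1 is flat.

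Within the mevalonate branch the neighbours Idi1 and Fdps had opposite signs. Idi1, the isomerase that interconverts the isoprenoid units, was at 6.64 and 7.01 in WT KLS, 7.28 and 6.76 in TG KLS, 7.25 and 7.27 in WT MEP, and 7.17 and 7.44 in TG MEP cells. Only TG KLS 1 among the KLS arrays reached the MEP levels, and the difference was 0.36 ± 0.15. Its other probe set gave 0.37. Fdps, which joins those units into farnesyl diphosphate, was lower in MEP cells by a log2 difference of -0.38 ± 0.14.

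Hmgcs1, the cytosolic HMG-CoA synthase, was at 7.30 and 7.24 in WT KLS, 7.75 and 6.94 in TG KLS, 7.24 and 7.03 in WT MEP, and 6.52 and 7.08 in TG MEP cells, a difference of -0.34 ± 0.19. The extremes were both TG arrays, one of each cell type. The kinases Mvk (0.03) and Pmvk (0.23) and the decarboxylase Mvd (-0.12), which act between mevalonate and the isoprenoid units, overlapped between the cell types.

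The 11 genes from squalene to cholesterol all overlapped between KLS and MEP cells, with differences from -0.20 (Msmo1) to 0.33 (Sqle). Sqle, squalene epoxidase, an oxygen-requiring and rate-controlling step, was at 8.30 and 8.20 in WT KLS, 8.60 and 8.42 in TG KLS, 8.41 and 8.85 in WT MEP, and 8.75 and 8.83 in TG MEP cells. WT MEP 1 fell within the KLS range and the other MEP arrays lay above it. Squalene synthase Fdft1 (0.12), which commits farnesyl diphosphate to sterols, gave 0.23 with its other probe set. Lanosterol synthase Lss was at 0.10 and the lanosterol demethylase Cyp51 at -0.02. The later enzymes were near 0 as well, with the sterol reductases Tm7sf2 at 0.02 and Dhcr7 at 0.05, the dehydrogenase Nsdhl at -0.04, the isomerase Ebp at 0.06 and the desaturase Sc5d at 0.12, while the reductase Hsd17b7 was at 0.28.

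Over the 33 genes, 18 differences between MEP and KLS cells were positive and 15 negative, with a median of 0.02 against -0.01 over all genes. By limma at an adjusted p under 0.05, 1 of the 33 was on the MEP side. It was Scd1, whose difference chose the set, so the call is no test. Of all genes, 0.396% were called higher in MEP cells and 1.20% higher in KLS cells. Arrays did not overlap for 2 genes above and 1 below, where 4.63% of all genes had every MEP array above and 4.41% had every MEP array below. Since this contrast chose the genes, nothing is read from these counts. In both genotypes alike, 13 genes were higher in MEP and 10 higher in KLS cells, and the other 10 differed in sign between WT and TG.

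Cell division genes and markers of fat cells were read across the same contrast. Cell cycle genes had mean log2 levels of 9.65 to 9.72 on KLS arrays and 9.90 to 10.01 on MEP arrays. Of 17 measured, 17 had a positive difference, against 46.5% of all genes, and 8 were higher in MEP cells at an unadjusted p under 0.05, against 6.24% of all genes, while 0 were called. Adipocyte markers had mean levels of 5.86 to 6.03 on KLS and 5.48 to 5.80 on MEP arrays, but the median difference of the 6 genes was -0.04. The gap between the means rested mainly on the fatty acid binding protein Fabp4, at -1.46 ± 0.17, the 1 adipocyte marker called (adjusted p = 0.0103, limma). The part of cell division or of adipocytes in the differences of the lipid genes was not tested.

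The genotype comparison asked whether ∆Hmga2 cells differed from wild-type cells of the same kind. No lipid synthesis gene was called in KLS cells, in MEP cells, averaged over both, or for the interaction, which is the genotype difference in MEP cells minus that in KLS cells. At an adjusted p under 0.05 the share of all genes called was 0% in each of these 4 contrasts. At an unadjusted p under 0.05, 0 of the 33 passed in each contrast, against 2.51% of all genes in KLS cells, 3.71% in MEP cells, 3.26% averaged and 2.27% for the interaction. The smallest unadjusted p of a lipid gene by limma was 0.167 in KLS cells, 0.120 in MEP cells, 0.122 averaged and 0.180 for the interaction, with adjusted p of 1.0, 1.0, 0.999 and 1.0.

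In KLS cells the TG minus WT differences ran from -0.24 to 0.42 on the log2 scale, with a median of 0.07 over the 33 genes and -0.02 over all genes. Standard errors ran from 0.13 to 0.32, and the 95% intervals from -0.76 to 1.14. Only the interval of Ebp, a sterol isomerase, reached past 1. Ebp was at 7.13 and 6.66 in WT and 7.77 and 6.85 in TG KLS cells, a difference of 0.42 ± 0.32. The TG arrays were further apart than the group means, and without TG KLS 1 the difference was -0.04.

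Arrays of the genotypes did not overlap in KLS cells for 3 genes above, Sqle (0.26 ± 0.17), Tm7sf2 (0.20 ± 0.15) and Pmvk (0.15 ± 0.21), and 3 below, Mvk (-0.18 ± 0.17), Mvd (-0.18 ± 0.16) and Srebf1 (-0.13 ± 0.13). Of all genes, 11.7% lay wholly above and 17.2% wholly below, so the members' 9.09% in each direction was no larger than the background. Sqle was at 8.30 and 8.20 in WT against 8.60 and 8.42 in TG cells, with an interval of -0.13 to 0.65. Pmvk, Mvk and Mvd catalyse successive steps, and they did not share a sign.

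In MEP cells the differences ran from -0.45 to 0.16, with a median of -0.04 and -0.01 over all genes, and with intervals from -1.05 to 0.69. Both stearoyl-CoA desaturases had the TG arrays below the WT arrays. Scd2 was at 7.45 and 7.60 in WT and at 7.09 and 7.05 in TG MEP cells, a difference of -0.45 ± 0.26 (interval -1.05 to 0.14). Scd1 was at 7.65 and 8.02 in WT and at 7.37 and 7.54 in TG MEP cells, a difference of -0.38 ± 0.22 (interval -0.89 to 0.13). Neither passed limma's test (unadjusted p = 0.120 and 0.123, adjusted p = 1.0 for both). Without WT MEP 1, the array with the high B lineage level, the differences were -0.53 for Scd2 and -0.57 for Scd1, and without WT MEP 2 they were -0.38 and -0.20.

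The other genes whose TG MEP arrays lay wholly below were Fdft1 (-0.25 ± 0.23) and Lss (-0.22 ± 0.16), and Nsdhl (0.10 ± 0.26) alone lay wholly above. These 4 of 33 below and 1 of 33 above compare with 17.2% and 13.0% of all genes. By role, the genes with a positive difference in MEP cells were 1 of 11 for fatty acids, 2 of 5 for control, 2 of 6 for the mevalonate branch and 5 of 11 from squalene to cholesterol, against 48.0% of all genes. All 10 mature neutrophil markers had TG MEP arrays below WT MEP arrays, with a median difference of -1.18, and 9 of 10 had an unadjusted p under 0.05, with 0 called. The part of such cells in the differences of the lipid genes was not tested.

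**Figure D3:**
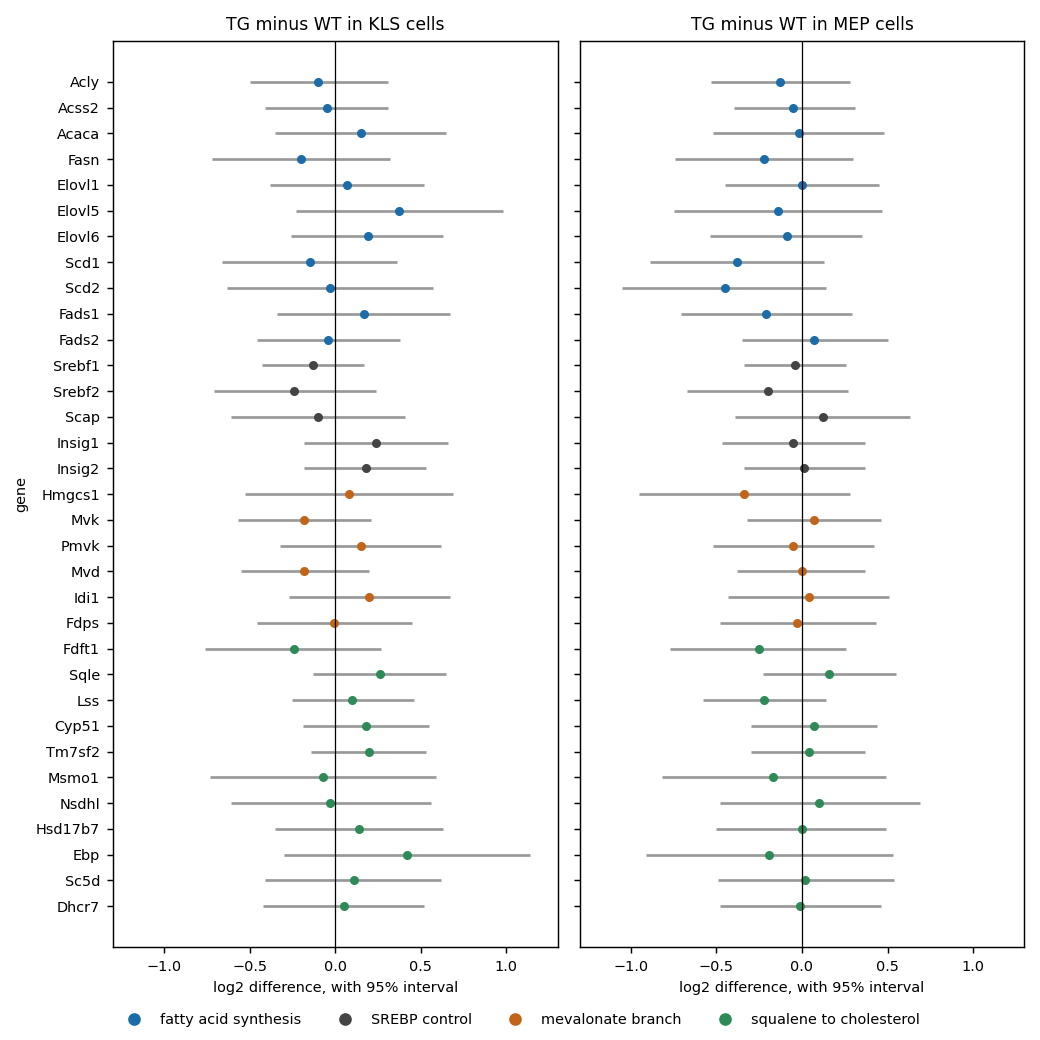
TG minus WT log2 difference of each of the 33 genes (points, coloured by role) with its 95% interval (lines), in KLS cells on the left and in MEP cells on the right. Every interval includes 0, and the points run from -0.24 to 0.42 in KLS and from -0.45 to 0.16 in MEP cells.

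The test of whether the genotype difference itself differed between the cell types gave log2 values from -0.61 (Ebp) to 0.24 (Mvk). Negative values were found for 25 of 33, and 24.2% were positive, against 49.4% of all genes. The median was -0.10, against -0.00 over all genes, and it was 0.03 without TG KLS 1. Ebp and Elovl5, at -0.52 ± 0.38, were the only members past 0.5 in size. The intervals of 6 members reached past 1. Scd1 was at -0.23 ± 0.32 (unadjusted p = 0.488, adjusted p = 1.0, limma), so its step between the cell types was not shown to differ between WT and TG. Averaged over both cell types, the genotype differences ran from -0.27 (Scd1, interval -0.63 to 0.09) to 0.21 (Sqle, -0.07 to 0.48). Srebf2 was at -0.22 (-0.55 to 0.12), and the interval of every member included 0.

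Most of the 33 genes, of both routes, differed in the same direction between the replicate arrays of TG KLS cells. This pattern was picked out after the values were seen. On TG KLS 1, 31 of the 33 genes were above their level on TG KLS 2, which is 93.9% against 63.0% of all genes. The median difference was 0.22, against 0.08 over all genes. The exceptions were Scd1, lower by -0.54, and Mvd, by -0.03. All 11 genes from squalene to cholesterol and all 5 control genes were on the higher side. So were 10 of 11 fatty acid genes and 5 of 6 genes of the mevalonate branch. As deposited, without further normalisation, 28 of 33 were higher on TG KLS 1, against 51.2% of all genes. Ebp differed by 0.92, Hmgcs1 by 0.80, Scd2 by 0.78, Msmo1 by 0.76 and Hsd17b7 by 0.65.

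To show the control regions behind these genes, promoter windows were taken from RefSeq, with 250 bases before and 50 after the annotated start on GRCm38.p6. Of the 34 genes, 28 had a window, 37 windows in all, and Scd1, Scd2, Fads1, Fdps, Fdft1 and Sqle had none. Shown are the genes with the largest differences between the TG KLS arrays that had a window, Ebp (chrX:8193463-8193762, minus strand), Hmgcs1 (chr13:119690101-119690400, plus strand), Msmo1 (chr8:64733529-64733828, minus strand) and Hsd17b7 (chr1:169969156-169969455, minus strand). Srebf2 (chr15:82147019-82147318, plus strand) is shown as the gene of the factor. Capitals mark matches, on either strand, to the sterol regulatory element core TCACNCCA, to the E-box CACGTG and to the CCAAT box.
Srebf2: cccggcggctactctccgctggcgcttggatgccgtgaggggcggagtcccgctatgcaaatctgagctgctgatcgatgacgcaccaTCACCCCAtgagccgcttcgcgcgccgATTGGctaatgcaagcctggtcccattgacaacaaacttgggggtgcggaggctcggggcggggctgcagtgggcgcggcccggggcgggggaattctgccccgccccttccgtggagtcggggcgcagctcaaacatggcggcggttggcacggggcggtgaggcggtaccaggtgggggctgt
Hmgcs1: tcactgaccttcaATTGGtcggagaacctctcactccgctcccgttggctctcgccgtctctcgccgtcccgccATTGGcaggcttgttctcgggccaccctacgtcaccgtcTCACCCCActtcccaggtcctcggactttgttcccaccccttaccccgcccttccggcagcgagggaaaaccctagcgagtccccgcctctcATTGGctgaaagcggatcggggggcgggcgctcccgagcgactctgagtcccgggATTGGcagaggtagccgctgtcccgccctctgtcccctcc
Msmo1: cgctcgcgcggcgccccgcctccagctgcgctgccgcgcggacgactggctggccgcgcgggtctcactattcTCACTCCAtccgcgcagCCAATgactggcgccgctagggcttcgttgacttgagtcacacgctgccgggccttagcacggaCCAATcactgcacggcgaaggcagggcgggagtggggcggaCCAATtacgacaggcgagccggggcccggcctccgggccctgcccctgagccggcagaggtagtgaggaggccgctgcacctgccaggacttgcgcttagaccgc
Hsd17b7: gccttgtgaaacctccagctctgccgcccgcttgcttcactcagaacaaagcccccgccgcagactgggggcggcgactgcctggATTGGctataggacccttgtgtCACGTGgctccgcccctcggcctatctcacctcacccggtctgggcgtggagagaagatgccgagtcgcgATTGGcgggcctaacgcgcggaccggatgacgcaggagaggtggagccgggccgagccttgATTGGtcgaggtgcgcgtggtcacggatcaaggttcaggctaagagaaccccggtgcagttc
Ebp: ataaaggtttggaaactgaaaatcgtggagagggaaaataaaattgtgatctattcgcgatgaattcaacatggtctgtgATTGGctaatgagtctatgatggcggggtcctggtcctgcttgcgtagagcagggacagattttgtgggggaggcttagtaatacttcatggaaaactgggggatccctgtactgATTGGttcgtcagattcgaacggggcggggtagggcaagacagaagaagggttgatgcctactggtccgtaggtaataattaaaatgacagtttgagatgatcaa

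The core TCACNCCA was found in 3 of the 37 windows, those of Hmgcs1 (bases 114 to 121 from the 5′ end), Msmo1 (74 to 81) and Srebf2 (89 to 96). It occurred in 4.36% of all 32851 promoter windows of the same length. The longer form TCACNCCAC, which contains the core, was in the Hmgcs1 window and in 1.24% of all windows. The CCAAT box, bound by NF-Y, a partner of SREBP at sterol genes, was in 24 of 37 windows (64.9%, against 37.4% of all). The Hmgcs1 window held 4 matches, all as ATTGG on the strand shown, while those of Msmo1 and Hsd17b7 held 3 each and that of Ebp 2. The GC box GGGCGG, bound by SP1, was in 75.7% of the windows and in 35.7% of all, and is not capitalised. The E-box CACGTG was in 18.9% of the windows and in 7.15% of all. These were 7 windows of 6 genes, among them Hsd17b7 and Insig1. The windows of Scap overlap and hold the same site, which is counted in each. A match is a run of letters and not evidence of binding, and a window without one says nothing of the factor.

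The same genes did not keep this order on the other replicate pairs. Hmgcs1 differed between replicate 1 and replicate 2 by 0.06 in WT KLS, 0.21 in WT MEP and -0.56 in TG MEP cells. Ebp differed by 0.47, -0.00 and -0.65, and Msmo1 by -0.32, 0.60 and -0.38. In TG MEP cells the direction was turned, with replicate 1 above replicate 2 in 6 of 33 genes against 40.7% of all genes, and a median of -0.17. In WT KLS cells 19 of 33 were above (56.6% of all genes), and in WT MEP cells 10 of 33 (37.6% of all genes).

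Some other lists were also mostly higher on TG KLS 1 than on TG KLS 2, where 63.0% of all genes were. All 12 genes of sterol transport, esterification and LXR response were, as were all 6 other sterol and SREBP genes and 13 of 16 fatty acid oxidation genes. Of the other fatty acid synthesis and activation genes, 20 of 27 were. The smaller part was higher among cell cycle genes (6 of 17), erythroid markers (4 of 11) and T and NK markers (4 of 9). The primary granule markers were higher in 6 of 6 cases by a median of 1.18, and on WT KLS 1 over WT KLS 2 by 0.97. Their part in the lipid gene differences was not tested. Over all arrays, TG KLS 1 held the highest value of 12 lipid genes and WT MEP 2 of 10, while TG MEP 1 held the lowest of 9.

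**Figure D4:**
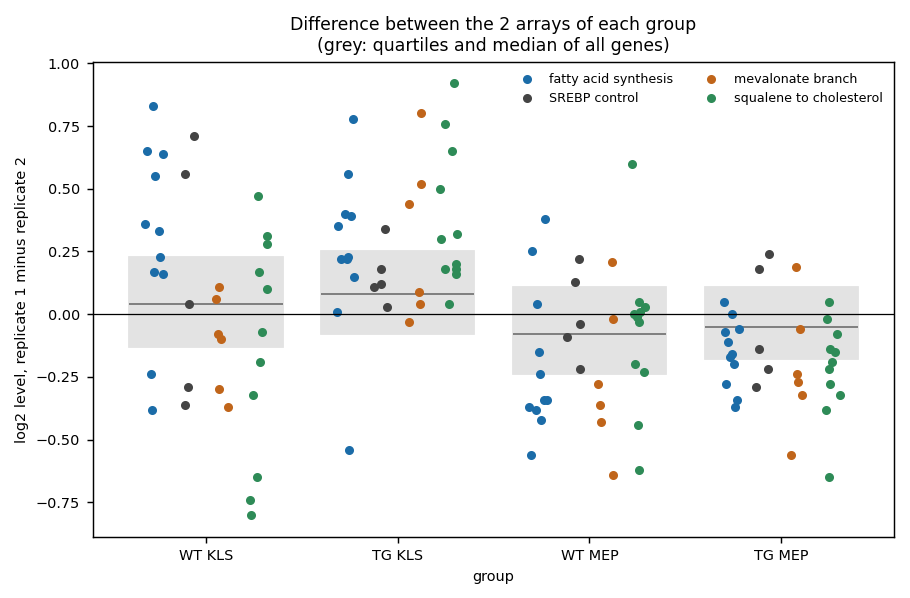
Replicate 1 minus replicate 2 in log2 level for each of the 33 genes (points, coloured by role) in each group, with the median and quartiles of all genes in grey. In TG KLS cells 31 of 33 points lie above 0 and in TG MEP cells 6 do.

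Genes next to these pathways were not chosen for Scd1, and they were tested between the cell types. Their lists were drawn up with earlier results of these data known, which limits what these tests show. In this contrast 0.396% of all genes were called higher and 1.20% lower in MEP cells. At an unadjusted p under 0.05 the share was 14.3% of all genes, 6.24% higher and 8.02% lower in MEP cells. Of 27 other fatty acid synthesis and activation genes measured, 7 had an unadjusted p under 0.05 by limma, 5 higher and 2 lower in MEP cells. For 4 of the 27 every MEP array lay above every KLS array (14.8%, against 4.63% of all genes), and for 0 every MEP array lay below. In this list 1 gene was called, higher in MEP cells. It was Acsl4, which activates long-chain polyunsaturated fatty acids, at 9.06, 8.90, 9.06 and 8.91 on the WT and TG KLS arrays and 9.48, 9.53, 9.46 and 9.51 on the WT and TG MEP arrays. The groups did not overlap, and the difference was 0.51 ± 0.10 (adjusted p = 0.0449, limma). The call was lost with the values as deposited (adjusted p = 0.0560), with median centring (0.0820) and when any array but WT MEP 1 was left out (0.0868 to 0.162).

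Of 12 sterol transport, esterification and LXR genes, 0 were called. Those with an unadjusted p under 0.05 were Vldlr, Npc1 (-0.49), Npc2 (-0.38) and Abcg1 (-0.34), all 4 lower in MEP cells, the last 3 named after their values were seen. Vldlr, a lipoprotein receptor, was at 6.64, 6.91, 7.18 and 6.42 on the WT and TG KLS arrays and 5.92, 5.82, 6.17 and 5.73 on the WT and TG MEP arrays. Every MEP array was below every KLS array, and the difference was -0.88 ± 0.18 (adjusted p = 0.0514, limma), with adjusted p from 0.0271 to 0.179 over the alternatives. Of 6 other sterol and SREBP genes, 0 were called and 1 had an unadjusted p under 0.05, Rnf139, a ubiquitin ligase of the sterol control system at 0.31 ± 0.12 (adjusted p = 0.250). Of 16 fatty acid oxidation genes, 0 were called and 2 had an unadjusted p under 0.05, Eci2, an enoyl-CoA isomerase, at 0.37 ± 0.13 (adjusted p = 0.193) and Hadhb at 0.28, named after its value was seen. Both of these lists, at 1 of 6 and 2 of 16, were near the 14.3% of all genes. In the 4 genotype contrasts 0 genes of these lists were called. At an unadjusted p under 0.05 there were 2, both in MEP cells, Fads3 at 0.39 and Hacd4 at -0.48, of which Hacd4 was named after its value was seen.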

How the data were processed

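The authors deposited log2 expression values of 35556 probe sets on 8 arrays, with the scale read from the values (1.71 to 14). Affymetrix Expression Console is named in the submitters' processing notes, and the sources used here do not give the summarisation or normalisation. Array medians spanned 0.106, over the limit of 0.1, so quantile normalisation was applied. Probe sets with 1 symbol (21789) gave 19938 genes, each by its brightest probe set. A mean per group was fitted over all arrays with limma 3.58.1 in R 4.3.3 (4 residual and 4.82 prior degrees of freedom). Tests were two-sided, with Benjamini-Hochberg adjustment over all genes. The procedure was tested on simulated data. The members, related lists and marker lists were chosen with earlier results of these data known. Any member could be named, and from each other list up to 3 called genes, or the one with the smallest p, besides genes that check a label. Alternatives were median centring, no normalisation, means over probe sets, dropping the dimmest 30% of genes, an intensity trend, robust variances, the replicate number as a block, an adjusted p under 0.10, 1 cell type alone and leaving out each array. Marker lists covered stem, erythroid, megakaryocyte, primary granule, mature neutrophil, B, T and NK, adipocyte and cell cycle genes.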

Additional observations from a re-analysis of the deposited data

How the results depend on the processing

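Over all alternatives, 0 of the 33 genes were called in the 4 genotype contrasts, with lowest adjusted p of 0.945 in KLS cells, 0.554 in MEP cells, 0.586 averaged and 0.672 for the interaction. Single genes changed the sign of an uncalled difference in 44 of 528 values in KLS and 50 of 528 in MEP cells. The median genotype difference in KLS cells, 0.07, ran from -0.11 without TG KLS 1 to 0.21 without TG KLS 2. With an array left out, the median ran from -0.14 to 0.05 in MEP cells, from -0.08 to 0.07 averaged, and from -0.22 to 0.03 for the interaction, where the highest value was without TG KLS 1. The interaction median was -0.26 with each array centred on its median. Between the cell types, the difference of Scd1, which chose the set, ran from 1.08 without TG KLS 1 to 1.36 without TG KLS 2. No test is read from it. The median between cell types ran from -0.04 to 0.06 with an array left out. With median centring, replicate 1 was above replicate 2 in 2 of 33 genes in TG MEP cells in place of 6.

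With the replicate number as a block, 0 genes were called in each genotype contrast. The medians, 0.07 in KLS, -0.04 in MEP, 0.02 averaged, -0.10 for the interaction and 0.02 between cell types, are fixed by the balanced design and say nothing of stability. Same-numbered arrays correlated at -0.284 to 0.385 in their deviations from group means, so the numbers were not taken as pairs. With 2 arrays a group, the intervals leave differences of the sizes given above undecided. The files give no detection calls, so signal over background was not assessed.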
